A study of Homo sapiens with 26 samples.

Results

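The genes of the AP-1 transcription factor were followed in A549 cells, an established human lung adenocarcinoma line, after TGF-beta 1 was added. The set holds 8 of the 19539 genes named on the arrays: JUN, JUNB, JUND, FOS, FOSB, FOSL1, FOSL2 and ATF3. They were picked as the named subunits of AP-1, with earlier results of these data known, and found on the arrays by gene symbol; 19 of the 54675 probe sets measure them. All cells were first kept without serum for 24 h, and the treated cells then received 5 ng/mL of porcine TGF-beta 1. There were 3 arrays of untreated cells, 3 for every time of 0.5, 1, 4, 8, 16, 24 and 72 h, and 2 for the time of 2 h. The labels number the arrays by experiment. The labels name no untreated cells harvested at the later times, so treatment and time in culture cannot be told apart, and the single line limits the results to these cells.

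AP-1 is a dimer of basic leucine zipper proteins that binds DNA. JUN, JUNB and JUND pair with each other or with FOS, FOSB, FOSL1 and FOSL2, and FOS proteins do not form stable dimers with themselves. JUN and FOS are classic immediate-early genes, which serum and growth factors induce before any new protein is made. TGF-beta acts through SMAD proteins, which can bind DNA together with AP-1, and through kinases that phosphorylate JUN.

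The DNA just before the start sites of 3 of these genes is shown. The reason is that the windows of JUN and of the first annotated start of ATF3 hold the same octamer. That of JUNB, whose signal rose with that of JUN, does not. Sequences are the RefSeq bases of build GRCh38.p14, 250 bases before the annotated start, 5′ to 3′ along the gene's strand, and capitals mark a match to TGACNTCA on either strand.
JUN, chr1:58784048-58784297, minus strand: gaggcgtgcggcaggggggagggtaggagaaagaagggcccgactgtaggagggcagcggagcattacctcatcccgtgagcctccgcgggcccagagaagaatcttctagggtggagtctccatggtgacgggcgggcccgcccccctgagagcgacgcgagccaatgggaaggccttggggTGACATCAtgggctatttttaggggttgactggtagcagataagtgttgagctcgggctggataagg
ATF3, chr1:212565157-212565406, plus strand: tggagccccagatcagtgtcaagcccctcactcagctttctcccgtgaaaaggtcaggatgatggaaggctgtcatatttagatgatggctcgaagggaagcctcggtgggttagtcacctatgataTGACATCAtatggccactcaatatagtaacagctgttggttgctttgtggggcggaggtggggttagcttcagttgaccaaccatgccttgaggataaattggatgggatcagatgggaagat
JUNB, chr19:12791236-12791485, plus strand: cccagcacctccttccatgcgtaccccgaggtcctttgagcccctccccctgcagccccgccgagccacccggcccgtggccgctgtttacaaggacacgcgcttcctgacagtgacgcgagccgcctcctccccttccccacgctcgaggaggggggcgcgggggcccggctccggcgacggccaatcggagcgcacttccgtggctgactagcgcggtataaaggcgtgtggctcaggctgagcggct

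The octamer TGACATCA began 67 bases before the start of JUN and 123 bases before the first annotated start of ATF3. The window of the second annotated start of ATF3 held no match to TGACNTCA. JUND held TGACGTCA 200 bases before its start. Of the 35116 promoter regions in the RefSeq table, 6.87 percent hold a match to TGACNTCA in the same 250 bases. The 7-base AP-1 motif TGANTCA and the SMAD palindrome GTCTAGAC were searched on both strands too, and neither was in the windows of the 7 members with an entry, 8 start sites in all. These motifs are held by 6.57 and 0.182 percent of the regions, and none of the 3 patterns contains another. A match is a description of the letters and not a measured binding site.

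All values are log2 signals converted from the deposited log10 values. A difference signal of zero lies at 6.64 on this scale, the lowest possible value at 5.64 and the median of every array at 7.96. Signals of different genes come from different probes, so only changes are compared between genes. A gene took 1 probe set, and 7 of the 8 members passed the filter on low values, which FOSB did not. A gene was called where limma's moderated test against untreated cells, with Benjamini-Hochberg adjustment across 14771 genes, fell under 0.05.

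The line's identity matched its label in its epithelial markers. KRT8 and KRT18, keratins of simple epithelia, had means of 14.6 and 15.2 in untreated cells. CDH1 (E-cadherin) and EPCAM stood at 13.1 and 11.2 there, and their lowest group means over the course were 8.83 and 8.44. Of the markers of other cells, PTPRC of leukocytes never exceeded an array's median. Of the 2 endothelial genes, CDH5 never did, and PECAM1 did on 24 of the 26 arrays, with group means of 8.21 to 8.35. Of the 2 fibroblast genes, DCN had group means of 7.18 to 7.71 and LUM 6.66 to 7.22 up to 24 h, with LUM at 9.52 at 72 h. Such bulk RNA does not tell fewer cells of a type from less RNA per cell. The alveolar marker NKX2-1 was below the median on every array, and SFTPC had an untreated mean of 8.28.

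JUN and JUNB rose within 0.5 h and stayed high for 72 h, while FOS ended far below its starting level. ATF3, by the probe set used, rose at 0.5, 1 and 2 h and did not pass the test at the later times. Its other probe sets passed at no time. JUND fell slightly from 16 h, FOSL1 rose slightly at 16 h, and FOSL2 rose at 72 h. FOSL1 was also called higher at 4 h, but this call was lost in 23 of 37 other settings. All 7 tested members changed over the course by the moderated F test, which 47.7 percent of all tested genes passed.

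**Figure D1:**
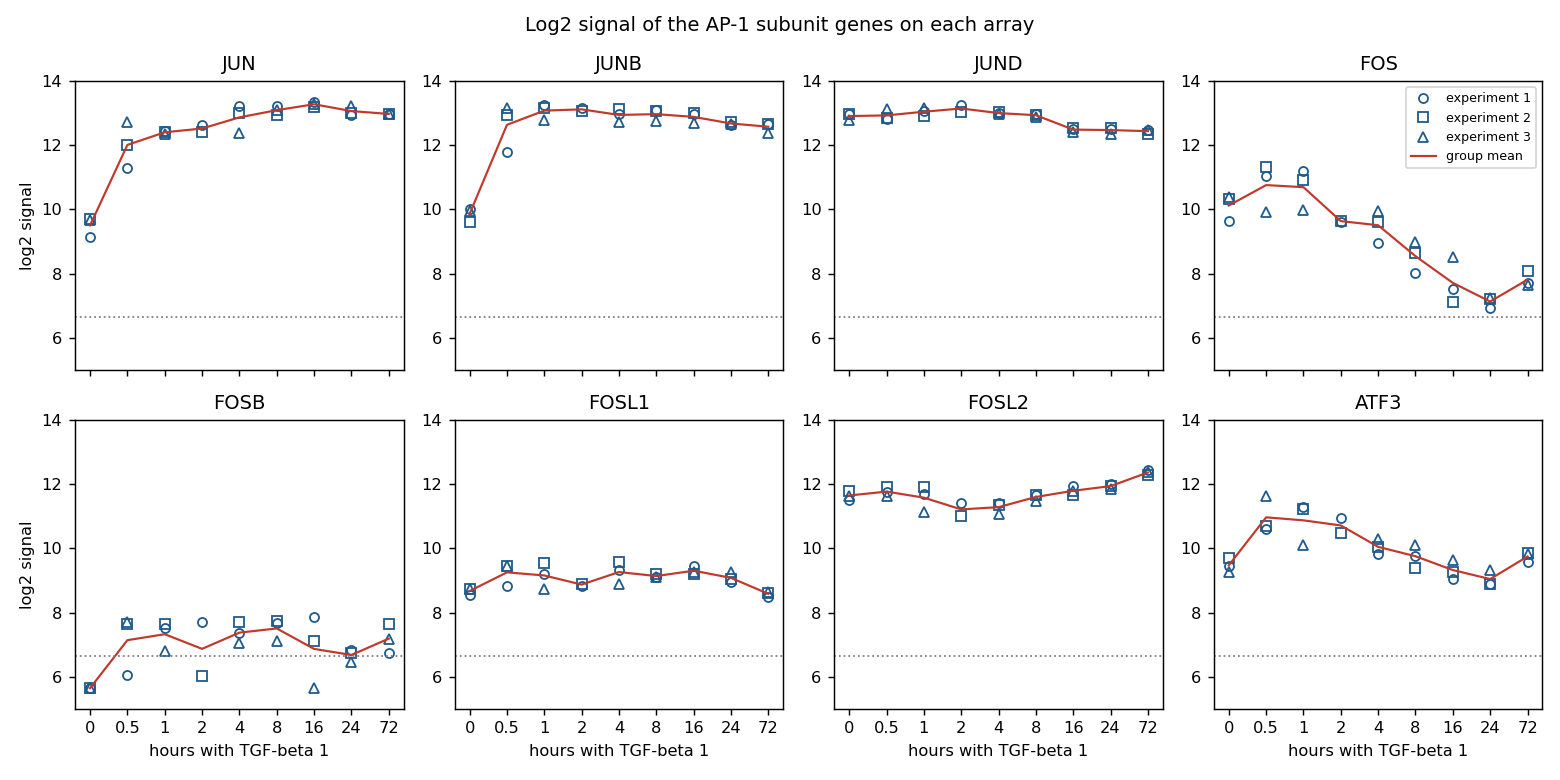
Log2 signal (vertical axis) of the probe set used for each of the 8 genes on each of the 26 arrays, by hours with TGF-beta 1 (horizontal axis, times evenly spaced, 0 is untreated). Symbols mark the experiment, the red line joins group means and the dotted line is a difference signal of zero; JUN and JUNB stay above 11 on every treated array, and the 3 FOS arrays at 24 h lie just above the dotted line.

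The share of all tested genes called in the same direction is the background for each count of members. At 0.5 h, 3 of the 7 members were higher and none was lower, against 0.129 percent of all genes higher and 0.00677 percent lower. The count of 3 higher and none lower was the same at 1 h, with a background of 0.467 percent higher and 0.0745 percent lower. It was also the same at 2 h (2.06 percent higher, 1.06 percent lower) and at 4 h (6.09 percent higher, 3.08 percent lower), where FOSL1 stood in place of ATF3. That FOSL1 call was lost in 23 of 37 other settings. At 8 h, 2 members were higher and 1 lower, beside 11.5 and 11.6 percent of all genes. At 16 h, 3 were higher and 2 lower, beside 15.2 and 18.5 percent. At 24 h, 2 were higher and 2 lower, beside 15.2 and 20 percent, and at 72 h, 3 were higher and 2 lower, beside 18.3 and 20 percent. The background grew strongly with time, so the early counts stand further from it than the late ones. The members were chosen with earlier results of these data known, so this distance is a description and not a test. The count at 0.5 h was 0 with only the groups compared in the fit.

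**Figure D2:**
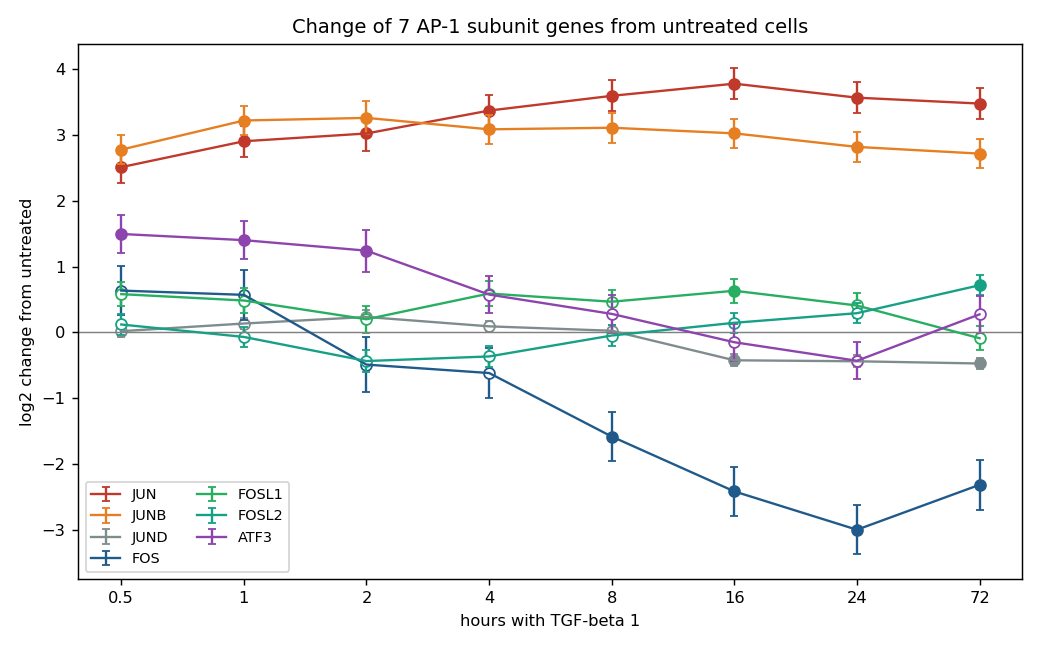
Log2 change from untreated cells (vertical axis) of the 7 tested genes at each time (horizontal axis, evenly spaced), with bars of 1 moderated standard error. Filled points passed the adjusted threshold of 0.05 and open points did not; JUN and JUNB lie between 2.51 and 3.78 throughout, and FOS reaches -2.99 at 24 h.

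JUN encodes the founding subunit of AP-1, which activates transcription and is itself activated when JNK kinases phosphorylate it. Its untreated arrays read 9.13, 9.69 and 9.67, and those at 0.5 h read 11.29, 12.02 and 12.71. At 1 h the arrays were close together at 12.45, 12.42 and 12.34. Every treated array lay above all untreated arrays. The share of all tested genes wholly above untreated was 3.83, 5.61, 14.3, 12.4, 15.6, 19, 18.3 and 24.1 percent at the times from 0.5 to 72 h in order. The rise of JUN was 2.51 ± 0.23 (SE, n = 3) on the log2 scale at 0.5 h, or 5.70-fold, with a limma adjusted p of 1.67e-06. The signal then rose on: arrays at 16 h read 13.35, 13.20 and 13.28, and the change from untreated was 3.78 or 13.7-fold, with a limma adjusted p of 1.36e-10. At 72 h the 3 arrays still read 12.98, 12.97 and 12.98, a change of 3.48.

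The late level of JUN was slightly above its level at 1 h. The difference of 24 h from 1 h was 0.66 ± 0.23 (SE, n = 3 and 3) with a limma adjusted p of 0.0341. In this comparison 1 member was higher and 3 were lower, beside 13 and 17.9 percent of all genes. This call was lost on leaving out any single array of either time, with adjusted p from 0.0549 to 0.105, and without the arrays marked r in the deposited headers, with 0.266. At 0.5 h, JUN had reached 66.5 percent of its largest log2 change and JUNB 85.2 percent of its own.

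JUNB encodes a subunit that activates some AP-1 sites weakly and can counter JUN, and it is a known early target of SMAD proteins. Its untreated arrays read 10.00, 9.61 and 9.96, and at 0.5 h they read 11.80, 12.95 and 13.16. The first experiment was thus the lowest at 0.5 h for JUN and for JUNB. By 1 h the arrays read 13.26, 13.17 and 12.80. The change from untreated was 2.78 ± 0.22 (SE, n = 3) at 0.5 h and was largest at 2 h, at 3.26 ± 0.25 or 9.56-fold. At 72 h, arrays at 12.67, 12.67 and 12.38 gave a change of 2.72. The difference of 24 h from 1 h was -0.40 with a limma adjusted p of 0.193, which did not pass. With only the untreated and 0.5 h arrays in the fit, the 0.5 h changes of JUN, JUNB and ATF3 did not pass, at limma adjusted p of 0.143, 0.0855 and 0.771. Their log2 changes were the same as with all arrays in the fit.

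JUND encodes a subunit that many resting cells express and that often restrains growth. Untreated arrays read 12.96, 12.98 and 12.78, and the arrays at 8 h read 12.96, 12.95 and 12.89. At 16 h they read 12.50, 12.54 and 12.42, below every untreated array, a separation that 22.1 percent of all tested genes also showed. Changes from 0.5 to 8 h lay between 0.02 and 0.24 and did not pass. The change was -0.42 ± 0.09 (SE, n = 3) at 16 h and reached -0.44 and -0.47 at 24 and 72 h, with limma adjusted p of 0.000675, 0.000453 and 0.000185. Between neighbouring times, 1 of 49 member steps was called, that of JUND from 8 to 16 h, at -0.45 with a limma adjusted p of 0.00345. With the experiment as a block, FOSL2 was called from 24 to 72 h as well (limma adjusted p of 0.0416), and with only the groups compared in the fit FOSL2, FOSL1 and ATF3 were called there (0.0151, 0.0450 and 0.0230). The share of all genes called was 0 percent from 0.5 to 1 h, 0.00677 percent from 1 to 2 h, 0.711 percent from 2 to 4 h, 2.34 percent from 4 to 8 h, 5.37 percent from 8 to 16 h, 0.217 percent from 16 to 24 h and 9.12 percent from 24 to 72 h. With its 4 probe sets averaged, JUND fell short of the threshold at 16 h (-0.32, limma adjusted p of 0.0580) and at 24 h (-0.31, limma adjusted p of 0.0642).

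FOS encodes the main partner of JUN in freshly stimulated cells, and its messenger RNA is short-lived. Untreated arrays read 9.65, 10.33 and 10.38. At 0.5 h the arrays read 11.05, 11.31 and 9.90, and at 1 h 11.18, 10.92 and 9.97. Experiments 1 and 2 thus stood above their untreated arrays at these times and experiment 3 below, with changes within an experiment from -0.48 to 1.40 at 0.5 h and from -0.41 to 1.53 at 1 h. The mean changes of 0.64 ± 0.38 and 0.57 did not pass. From 8 h FOS was lower, with a change of -1.58 that grew to -2.41 at 16 h and -2.99 at 24 h, and was -2.31 at 72 h. The arrays at 24 h read 6.93, 7.20 and 7.25, all under the array median, and the fall of 7.97-fold there had a limma adjusted p of 1.30e-06. The difference of 24 h from 1 h was -3.57 with a limma adjusted p of 1.51e-07. Since the signal at 24 h lies near zero on the offset scale, the fold is understated.

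FOSB encodes a FOS relative that has a shorter splice form. Its single probe set read the lowest possible value, 5.64, on all 3 untreated arrays, and on 1 array at 16 h. Of the 26 arrays, 0 exceeded the array's median and the highest value was 7.86. No fold is given for FOSB, because no array's signal exceeded the array's median. In the fit without a filter, FOSB was called higher after 4, 8 and 72 h with limma adjusted p of 0.0288, 0.00831 and 0.0176. It missed the threshold at the other times. The floor hides the spread of the untreated arrays, so these p-values do not measure it. The share of all genes called in that fit is not given here.

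FOSL1 encodes FRA1, a subunit linked with invasive growth of epithelial tumour cells. Untreated arrays read 8.54, 8.75 and 8.72, and arrays at 16 h read 9.44, 9.21 and 9.26, with no overlap. Of all tested genes, 19 percent lay wholly above untreated at 16 h. The rise of FOSL1 at 16 h was 0.63 with a limma adjusted p of 0.0104 and passed in each of the 37 other settings tried. The rise at 4 h, 0.59 ± 0.19 (SE, n = 3) with a limma adjusted p of 0.0471, was lost in 23 of the 37. Changes at the other times ranged from -0.09 at 72 h to 0.58 at 0.5 h and did not pass.

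FOSL2 encodes FRA2, a subunit studied in fibrosis. Untreated arrays read 11.52, 11.80 and 11.62. The arrays at 2 h read 11.43 and 11.001, and those at 4 h 11.42, 11.36 and 11.07, all under the untreated ones. Of all tested genes, 13.9 and 9.84 percent lay wholly under untreated at these times. The FOSL2 changes of -0.43 and -0.36 did not pass. At 72 h the arrays read 12.43, 12.28 and 12.38, above every untreated array, a separation that 24.1 percent of all tested genes also showed. The rise was 0.72 ± 0.16 (SE, n = 3) or 1.64-fold. Its limma adjusted p was 0.000771, and the call held in the 37 other settings. Of the fibroblast markers, LUM was highest at the same time, at 9.52 against 6.91 in untreated cells, and DCN had a mean of 7.18 against 7.55; their part in this result was not tested.

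ATF3 encodes a stress-induced factor that pairs with JUN proteins and mostly represses. Untreated arrays read 9.45, 9.70 and 9.26, and arrays at 0.5 h read 10.59, 10.68 and 11.63. At 1 h they read 11.28, 11.24 and 10.11, and at 2 h 10.95 and 10.48, so every array up to 2 h lay above the untreated ones. Of all tested genes, 3.83, 5.61 and 14.3 percent lay wholly above untreated at 0.5, 1 and 2 h. The rise of ATF3 was 1.495 ± 0.28 (SE, n = 3) or 2.82-fold at 0.5 h, with a limma adjusted p of 0.0259. It was 1.40 at 1 h and 1.24 ± 0.32 at 2 h, with limma adjusted p of 0.0161 and 0.0308. At 4 h the arrays read 9.82, 10.05 and 10.28, still above every untreated array, a separation that 12.4 percent of all tested genes also showed. The change of 0.58 did not pass, and the step from 2 to 4 h did not pass either (limma adjusted p of 0.479). By 24 h the arrays read 8.90, 8.90 and 9.33, a change of -0.43 that did not pass. The difference of 24 h from 1 h was -1.83 with a limma adjusted p of 2.55e-05.

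The early calls of ATF3 depended on single arrays. At 0.5 h the call was lost without any 1 of the untreated arrays (limma adjusted p of 0.106, 0.0532 and 0.179) or without the third 0.5 h array (0.294). At 1 h it was lost without untreated array 1 or 3 (limma adjusted p of 0.0593 and 0.0978) or without 1 h array 1 or 2 (0.108 and 0.123), and with only the groups compared in the fit (0.262). At 2 h it was lost without untreated array 1 or 3 (limma adjusted p of 0.0685 and 0.102) or without either 2 h array (0.420 and 0.0899). When its 3 probe sets were averaged ATF3 did not pass, with changes of 0.84, 0.72 and 0.38 at these times and limma adjusted p of 0.142, 0.126 and 0.522.

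The order of the group means differed from gene to gene. JUN was highest at 16 h and JUNB at 2 h, and both were lowest in untreated cells. FOS and ATF3 were highest at 0.5 h and lowest at 24 h, JUND ran from 2 h down to 72 h, FOSL1 from 16 h down to 72 h and FOSL2 from 72 h down to 2 h. Each order has 8 pairs of neighbours. The arrays overlapped in 8 for FOS, in 7 for JUN, JUNB, FOSL2 and ATF3, and in 6 for JUND and FOSL1. Sorting by mean puts close groups side by side, so these counts only describe the order and do not test a difference. Their share over all genes was not computed. The pair that lay apart was untreated with the lowest treated time for JUN and for JUNB, 72 h with 24 h for FOSL2, and 2 h with 4 h for ATF3. For FOSL1 the pairs apart were 24 h with 2 h and 2 h with untreated. For JUND they were untreated with 16 h, and 4 h with 8 h, where the change of -0.07 did not pass (limma adjusted p of 0.825).

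The probe sets of a gene did not always give the same answer. Over all 19 probe sets and 8 times, 59 of 152 comparisons passed, 50 higher and 9 lower, in a fit over 54613 probe sets. The share of all probe sets called was 0.0677, 0.267, 1.26, 3.85, 10.3, 16.1, 16.9 and 19.9 percent at the 8 times in order. Of these, the share higher was 0.0641, 0.212, 0.846, 2.56, 5.48, 8.01, 8.23 and 10.1 percent. The share lower was 0.00366, 0.0549, 0.414, 1.29, 4.79, 8.13, 8.7 and 9.83 percent. All 4 JUN probe sets were higher at 8 of 8 times, but the rise at 16 h ranged from 2.03 for 213281_at to 3.78 for 201466_s_at, and 201465_s_at dropped back to 1.24 at 72 h. For JUND, 203751_x_at and 214326_x_at were lower at 72 h only and 229117_s_at at no time. For FOSL2, 3 of 4 probe sets were higher at 72 h and 205409_at was not. For ATF3, 1554420_at and 1554980_a_at passed at no time. The letters x and s in these names mark sets whose probes may match several transcripts.

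**Figure D3:**
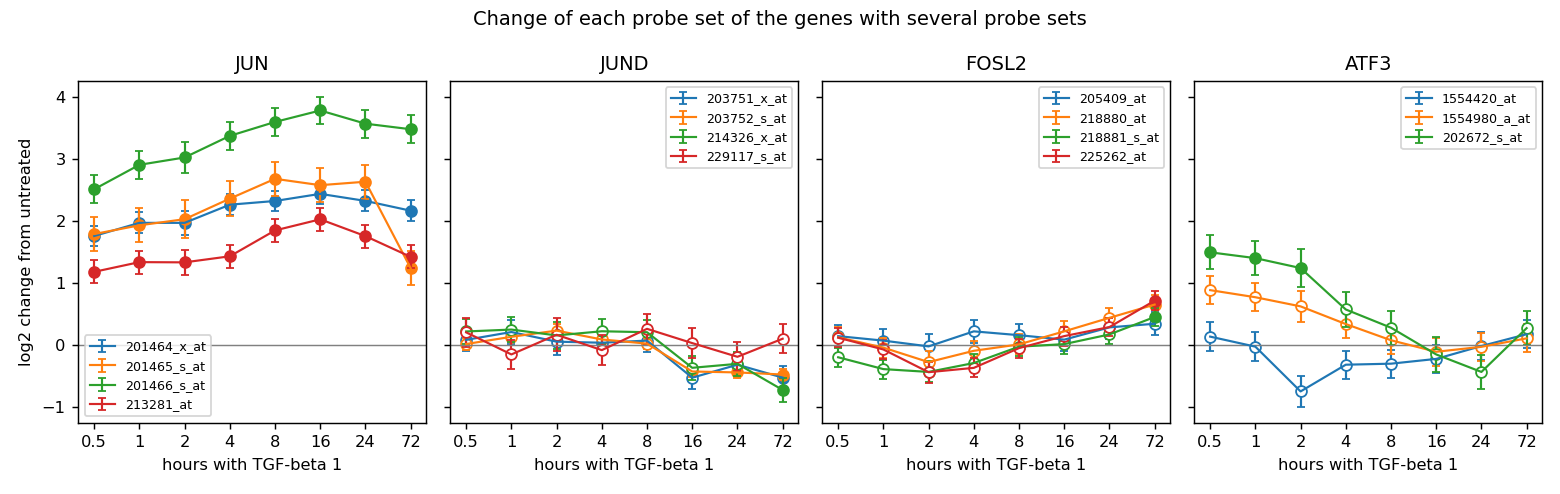
Log2 change from untreated cells (vertical axis) of every probe set of JUN, JUND, FOSL2 and ATF3 at each time (horizontal axis, evenly spaced), with bars of 1 moderated standard error; filled points passed the adjusted threshold of 0.05. The 4 JUN sets all lie above 1 and differ in size, and only 1 of the 3 ATF3 sets has filled points.

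The authors' deposited table gives its own p-values, not adjusted, and folds. In the authors' deposited table, the probe sets used here for JUN and JUNB passed p under 0.001 with more than a 2-fold change at 8 of 8 times. By the probe set used for each gene, FOS passed at 3 times and ATF3 at 2 in the authors' deposited table, and the other 4 members at none. The other ATF3 probe sets passed at no time. The share of all probe sets that pass this cut was not computed.

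Genes that AP-1 is known to regulate were mostly higher at late times. Of 21 tested targets, 2 were higher at 1 h and 15 at 24 h, and none was lower at either. Of all genes, 0.467 and 15.2 percent were higher at these times, and 0.0745 and 20 percent were lower. The count at 1 h ran from 0 to 4 over the 37 other settings, and that at 24 h from 13 to 16. The median change of these targets at 24 h was 1.48, beside -0.05 for all tested genes. PLAUR, the urokinase receptor, rose by 0.93 on the log2 scale at 1 h. IL11, a cytokine that signals through the receptor chain it shares with IL6, rose by 6.65 on the log2 scale, MMP10, a matrix metalloproteinase, by 4.13 and PLAU, the urokinase, by 2.63 at 24 h. Many of these genes are also regulated by SMAD proteins.

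Other immediate-early genes were partly higher from the start. Of 14 tested, 6 were higher and 1 lower at 1 h, beside 0.467 and 0.0745 percent of all genes. At 24 h, 7 were higher and 1 lower, beside 15.2 and 20 percent. The count higher at 1 h ran from 3 to 6 over the other settings. The median change was 0.19 at 1 h and 0.56 at 24 h. KLF10, a repressor first found as a TGF-beta early gene, rose by 1.84 at 1 h and 1.54 at 24 h. IER2 rose by 1.57 and 1.62 at these times, and CCN1, a matricellular protein, by 1.54 and 3.07. ZFP36, which speeds the decay of short-lived messenger RNAs, rose by 1.56 at 1 h, and EGR2, a zinc finger factor, by 3.45 at 24 h.

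Among 23 tested basic leucine zipper relatives, 1 was higher and 1 lower at 1 h, beside 0.467 and 0.0745 percent of all genes. At 24 h, 7 were higher and 5 lower, beside 15.2 and 20 percent, so the lower count was near the background, and the higher count ran from 3 to 8 over the other settings. The median change of these relatives at 24 h was 0.01, beside -0.05 for all genes. MAF, a large MAF factor that can pair with FOS or JUN, rose by 5.62 at 24 h. CEBPD, a C/EBP factor, fell by 1.89 at 1 h and 3.09 at 24 h, and CREB5 rose by 1.81 at 24 h. Of 20 tested kinases and factors upstream of AP-1, none was called at 1 h, where 0.542 percent of all genes were. At 24 h, 8 were higher and 4 lower, beside 15.2 and 20 percent of all genes, so the lower count was at the background, and the median change was 0.05. MAP2K6, a kinase that activates p38, fell by 2.24 and MAP3K1 fell by 1.06. ELK3, a partner of SRF, rose by 1.77, and MRTFA, which also acts with SRF, rose by 1.24. Of 7 regulators of AP-1 proteins, 3 were lower at 24 h, beside 20 percent of all genes, and the median change was -0.04. They were MEN1, which binds JUND, at -0.41, DET1 at -0.38 and COPS5 at -0.28. This count was 0 with only the groups compared in the fit and 0 without the arrays marked r, and 1 when arrays were centred on their median or without untreated array 2 or 24 h array 1.

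**Figure D4:**
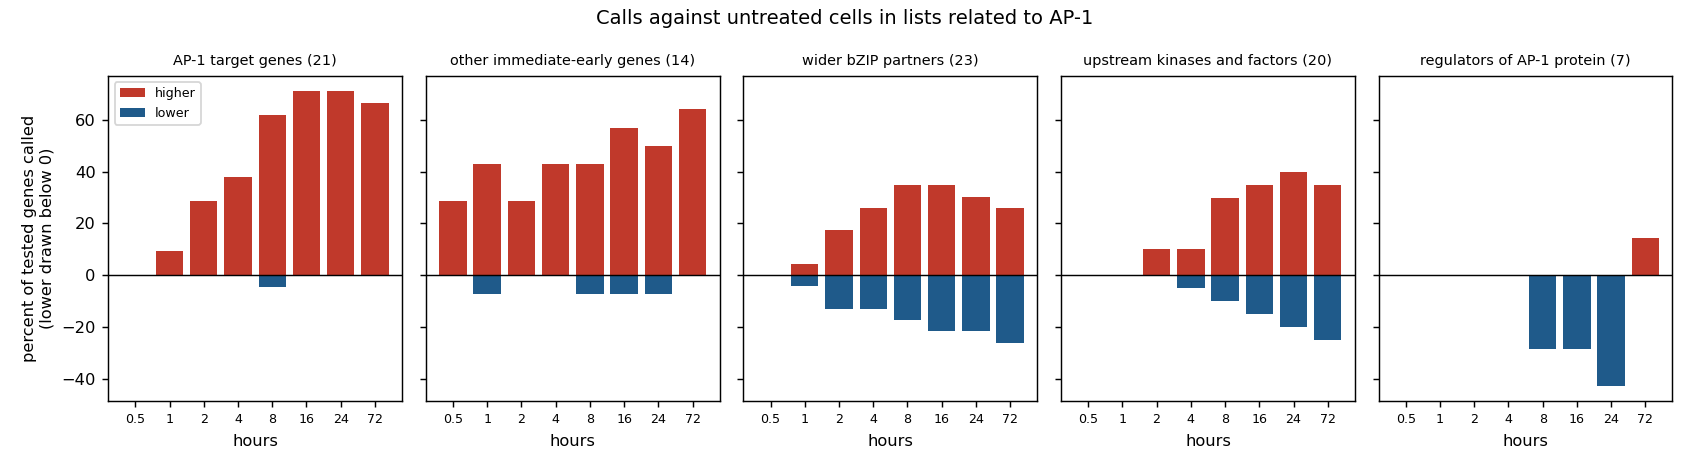
Percent of the tested genes of each list that were called higher (above 0) or lower (drawn below 0) than in untreated cells at each time, with the number tested in brackets. Of the 21 targets, 15 were higher at 24 h and none was lower, while the relatives and the upstream genes were called in both directions. Of all tested genes, 15.2 percent were higher and 20 percent lower at 24 h.

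Genes with the most similar course were found by the Pearson correlation of the 9 group means, among 3177 genes whose means spanned at least 1 on the log2 scale. These coefficients are descriptions over the same 26 arrays. Nearest to JUN were LOC727820 (0.968), IER3 (0.966) and IER2 (0.953), and nearest to JUNB were IER2 (0.968), SKIL (0.964) and BHLHE40 (0.955). Nearest to FOS were NFIL3 (0.989), IFIT3 (0.988) and NR1H4 (0.982), and nearest to JUND were MBD4 (0.990), TRIM6 (0.988) and TSPAN1 (0.982). Nearest to ATF3 were PIM1 (0.945), ID2 (0.938) and NRARP (0.902), and nearest to FOSL2 were PAPPA (0.966), HERC4 (0.958) and PHF21A (0.958). FOSL1 had the weakest matches, with AZGP1 (0.913), ADAMTS10 (0.876) and ADAM28 (0.842).

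Between 28834 and 32875 probe sets were detected per array in the authors' quality table. The 3′ to 5′ signal ratio of actin, which rises as RNA degrades, was 0.975 to 1.16, with group means of 1.10 in untreated cells, 1.11 after 0.5 h, 1.03 after 1 h and 1.00 after 24 h. Its part in the late changes was not tested.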

How the data were processed

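RNA of A549 cells was hybridized to 26 HG-U133 Plus 2.0 arrays. The authors deposited log10 values, per the file headers log10(max(x+50,0)+50) of trimmed perfect-match minus mismatch means (20 percent trimmed, scale constant 1000), quantile-normalized against a standard array. The offset of 100 understates folds of weak genes, and 1.23 percent of values lie at the floor. The authors also deposited a p-value per time, not adjusted, and fold changes as ratios. Symbols came from the deposited annotation and Entrez numbers. A gene was measured by its brightest probe set on average, sets not marked x first, and had to exceed the array median on 2 arrays (4768 genes removed). Sets marked s were not set back, and those used for JUN, JUND and ATF3 are marked s. Detection calls were not used here.

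The log2 values were fitted with limma 3.58.1 (lmFit, eBayes with trend; R 4.3.3, data.table version 1.17.8) on all 26 arrays in 9 groups, without a block, with 17 residual degrees of freedom, two-sided. Standard errors are limma's and pooled over groups; p-values measure the spread between arrays, and the number of arrays limits the precision. The design says the experiment was repeated, so numbers were taken to pair the arrays. Deviations from group means of same-numbered arrays had a median correlation of 0.152, and of others -0.0619. By their array names, untreated arrays 2 and 3 each stand in the other experiment's run of names, so their pairing is less sure. The script was tested on simulated data. All members and all probe sets were named; of 5 lists, up to 4 called genes with the largest change at 1 and 24 h, some of which are not reported here; and the 3 genes nearest in course. Members and lists were chosen with earlier results of these data known. SFTPA1 was not matched, and MAFG, NRL, ELK1 and MMP13 were not tested. RefSeq promoter entries matched 7 members; FOSL1 had none. Alternatives were the block, the filter (none or stricter), centring, a second quantile normalization, a further offset of 50, no trend, a robust fit, probe set choice, the groups fitted, the arrays marked r and each array left out.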

Additional observations from a re-analysis of the deposited data

Results flagged for a closer look

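Whether a member's change from untreated cells differed between an early and a late time was tested by comparing 24 h with 1 h, and 4 of 7 members differed, 1 higher and 3 lower, beside 13 and 17.9 percent of all genes. JUN was higher at 24 h by 0.66 on the log2 scale, a call lost on leaving out any single array of either time. JUND differed by -0.57, with a limma adjusted p of 2.45e-05. FOS differed by -3.57 and ATF3 by -1.83. JUNB, FOSL1 and FOSL2 did not pass. FOSL2 passed with the experiment as a block (limma adjusted p of 0.0427), with arrays centred on the median (0.0282), with probe sets averaged (0.00435) and without 1 h array 2 (0.0155). JUNB passed with only the groups compared in the fit (limma adjusted p of 0.0439) and without 0.5 h array 1 (0.0328).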

How the results depend on the processing

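Of 4144 values of single members recomputed under 37 settings, 4078 kept their side of the threshold, 51 lost a call and 15 gained one. No called value changed sign, and 44 values that were not called did, from -0.14 to 0.29. Steps between neighbouring times had 1 call, 2 with the experiment as a replicate block and 4 with only the groups compared in the fit. The block changed no other count of members called by over 1.5 times; it also called FOSL2 for 24 h against 1 h (0.36, limma adjusted p of 0.0427) and 72 h against 24 h (0.42, limma adjusted p of 0.0416). At 0.5 h, 0 members were called with only the groups compared, against 3. The log2 changes of JUN, JUNB and ATF3 were the same in both fits, at 2.51, 2.78 and 1.495, so the lost calls are not smaller changes. The cause was not tested further. Leaving out 1 array at a time gave 2 to 3 members at 0.5, 1, 2 and 4 h, 3 to 4 at 8 h, 5 to 5 at 16 and 72 h, 4 to 4 at 24 h, 3 to 5 for 24 h against 1 h, 1 to 2 steps, 7 to 7 by the F test and 51 to 62 probe set comparisons. Of the 21 targets, 13 to 16 were higher at 24 h over the 37 settings, and 0 to 4 at 1 h; of the other immediate-early genes 3 to 6 were higher at 1 h, and of the leucine zipper relatives 3 to 8 at 24 h. The regulators lower at 24 h numbered 0 to 3. The median change of all genes lay within 0.05 of zero at every time. Signals near zero, such as those of FOSB and late FOS, limit what their folds can show.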
